A study of Mus musculus with 4 samples.

Results

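The genes of the AP-1 transcription factor family were followed in whole eyes of mice after light exposure. The family was taken as 9 genes, Fos, Fosb, Fosl1, Fosl2, Jun, Junb, Jund, Atf3 and Batf, picked by name and not by their values. All 9 were found among the 22558 genes of the deposited table. Of these 9 genes, 7 had a mean of at least 1 FPKM over the 4 samples, as had 14194 genes in all. FPKM are sequenced fragments scaled to transcript length and library size. Fosl1 and Batf stayed under that mean. Fosb passed it only through its higher values at 3 h and 24 h.

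All 4 samples came from 6-week-old Abca4-/-Rdh8-/- mice, which lack a retinaldehyde transporter and a retinol dehydrogenase of photoreceptors and serve as a model of retinal damage by light. The control received no light, and the other samples followed exposure by 3 h, 24 h or 7 days. The labels describe each condition as eyes of 3 mice, but 1 FPKM value per gene and condition was deposited, so no difference here has a replicate check and no test was possible. No wild-type mice and no light-exposed mice without the deletions are among the samples, so a response particular to this genotype cannot be told apart from a response to light in general.

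Markers of the whole eye were present throughout: 8 rod genes summed to 7323 to 11432 FPKM and 8 lens genes to 78328 to 87868 FPKM. Y-linked transcripts were above traces in the 7-day sample only, with Ddx3y at 6.59 FPKM against at most 0.00528 in the others. Xist, the RNA of the inactive X chromosome, was at 47.2 FPKM in the control and 53.8, 53.8 and 37.1 after 3 h, 24 h and 7 days. The 7-day sample thus held tissue of both sexes, and sex and time cannot be told apart in its comparisons. In tissue of mixed cells, fewer cells of a type and less RNA per cell cannot be told apart either. From olfactory receptor genes seen in a single sample, 1 fragment was worth about 0.0448 FPKM without light, 0.0467 after 3 h, 0.0350 after 24 h and 0.0255 after 7 days for a gene of that length. A value of 20 FPKM then carries a counting error of 3.57% to 4.83%, and a value of 1 FPKM one of 16.0% to 21.6%. These errors leave out the variation between animals. Fragment counts and counting errors given below for AP-1 genes use the same unit and are not corrected for the length of each gene.

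AP-1 is a dimer of basic leucine zipper proteins. Jun proteins pair with each other or with Fos proteins, Fos proteins need a Jun partner, and Atf3 and Batf bind as partners of Jun proteins. Fos and Jun are classic immediate early genes, switched on within minutes of a stimulus by MAP kinase signalling without new protein synthesis, and their mRNAs are short-lived. In the retina, Fos has been linked to the death of photoreceptors after bright light, and Atf3 and Jun to injured neurons.

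The stretches upstream of the genes that differed most between samples are shown because several carry a variant of the cyclic AMP response element, a site that ATF, CREB and Jun-containing dimers can bind. They are RefSeq sequences of the GRCm38.p6 build, 120 bases ending at the base before the annotated start, and the deposited values were made on mm9. Capitals mark the partial site TGACG on either strand, TGACGTCA with at most 1 mismatch, or the related TGACGCAA. Fos lies on the plus strand at chr12:85473770-85473889, Fosb on the minus strand at chr7:19310046-19310165, Jun on the minus strand at chr4:95052223-95052342, Junb on the minus strand at chr8:84978749-84978868 and Atf3 on the minus strand at chr1:191183334-191183453.
Fos: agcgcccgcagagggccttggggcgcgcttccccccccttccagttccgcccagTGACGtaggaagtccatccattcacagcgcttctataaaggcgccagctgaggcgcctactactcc
Fosb: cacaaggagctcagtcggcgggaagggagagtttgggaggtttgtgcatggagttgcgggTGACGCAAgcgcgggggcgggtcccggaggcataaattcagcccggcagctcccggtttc
Jun: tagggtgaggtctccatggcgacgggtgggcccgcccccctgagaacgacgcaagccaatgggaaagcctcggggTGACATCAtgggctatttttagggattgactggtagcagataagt
Junb: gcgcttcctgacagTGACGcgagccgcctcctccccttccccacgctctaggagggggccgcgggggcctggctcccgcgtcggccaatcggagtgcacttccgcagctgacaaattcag
Atf3: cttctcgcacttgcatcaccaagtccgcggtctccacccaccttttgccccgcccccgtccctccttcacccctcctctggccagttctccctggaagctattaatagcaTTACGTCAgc

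Promoter entries, each from 250 bases before to 50 after a start, were found for 8 of the 9 genes. Fosl1 had none. TGACG on either strand was in 5 of the 8 (Fos, Fosb, Junb, Atf3 and Batf) and in 20.8% of all 32851 entries. TGACGTCA with at most 1 mismatch was in 3 of the 8 (Fos, Jun and Atf3) and in 12.5% of all entries, and the match in Fos lies upstream of the stretch shown. Both patterns were chosen after the sequences were seen, and they overlap each other. Among the other patterns, TGACGCAA was in Fosb (0.490% of all entries) and CCGGAAG, an ETS site, in Batf (8.86%). TGANTCA, the AP-1 site itself (7.81%), the exact TGACGTCA (1.79%), the CArG box of serum response factor (1.63%) and TTCNNNGAA, a STAT site (8.30%), were in none of these 8 windows. All of these patterns were searched on both strands. A match or its absence describes these letters in these windows only.

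The family as a whole was highest at 3 h and 24 h and close to the control at 7 days. The 9 genes summed to 136.2 FPKM in the unexposed sample, 252.2 after 3 h, 267.8 after 24 h and 145.2 after 7 days. The 4 Fos genes summed to 31.5 FPKM in the control and 69.5, 44.8 and 28.2 after 3 h, 24 h and 7 days, and so were highest at 3 h. The 3 Jun genes summed to 101.2 FPKM, 174.7, 207.3 and 113.1 in the same order, and so were highest at 24 h. The Fos genes held 23.2% of the family sum without light, 27.6% after 3 h, 16.7% after 24 h and 19.4% after 7 days. In the control the order of levels, from the highest, was Jund, Junb, Jun, Fosl2, Fos, Atf3, Batf, Fosb and Fosl1, and at 3 h Fos stood above Fosl2 and Junb above Jund. Whether neighbours in this order differ beyond the spread between animals cannot be said from 1 value each. At 3 h and 24 h, most of the difference from the control lay in Fos, Jun, Junb and Atf3 as a group. Their share of the sum was 55.3% in the unexposed sample, 67.0% after 3 h, 70.9% after 24 h and 53.6% after 7 days. Jund, outside this group, differed from the control by more FPKM than Atf3 at both times. Jund was at 42.6 FPKM without light, 60.4 after 3 h and 57.7 after 24 h. Atf3 was at 2.59, 7.70 and 15.4 FPKM in the same order. At 24 h Jund also differed by more FPKM than Fos or Jun.

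**Figure D1:**
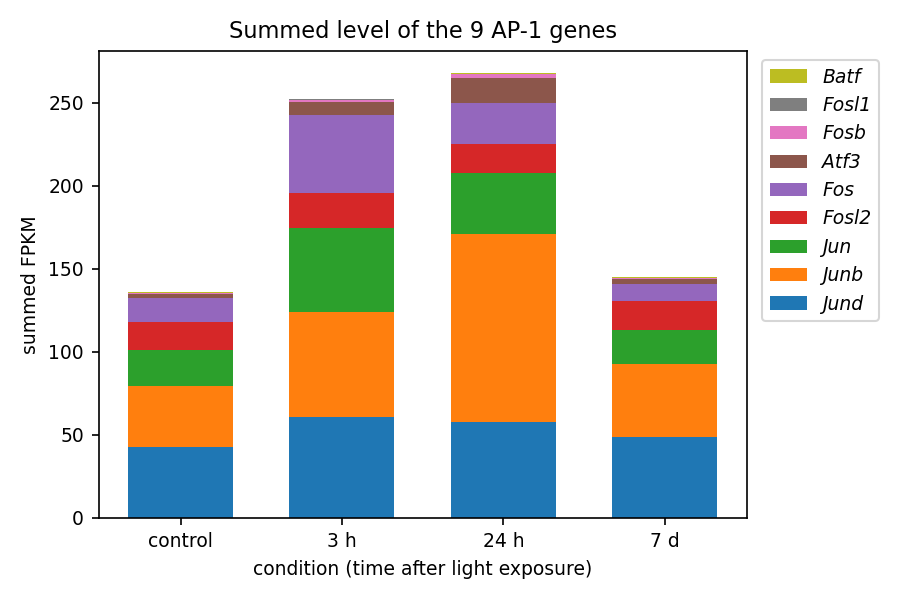
Stacked bars give the FPKM of the 9 AP-1 genes in each of the 4 samples (1 value per gene and condition, no error bars possible). The total is 136.2 in the control and 252.2, 267.8 and 145.2 after 3 h, 24 h and 7 days; the Junb segment is tallest at 24 h and the Fos segment at 3 h.

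Each change is a log2 ratio of FPKM + 1 between a pair of samples, and a gene was called higher or lower at a change of at least 1 unit. At 3 h, Fos, Jun and Atf3 were called higher than the control, 3 of the 7 genes, and no member was called lower. Over all 14194 genes, 0.550% were called higher and 0.240% lower. The median change of the 7 genes was 0.77, and that of all genes 0.02. At 24 h, Fosb, Junb and Atf3 were called higher, again 3 of 7 (2 of 6 without Fosb, which passed the filter through these values) and none lower, against 0.747% higher and 0.359% lower over all genes. The median was 0.77 for the 7 genes and 0.01 for all. At 7 days none of the 7 was called in either direction, against 0.409% higher and 0.190% lower over all genes, and the median was 0.12. The 3 comparisons share the control sample. All 7 genes lay above 0 at 3 h and at 24 h, and 5 of 7 did at 7 days. Fosb is counted here although it passed the filter only through its 3 h and 24 h values. The median of all genes was also above 0 at each time (0.003 at 7 days). At least 50% of all genes thus lay above 0, so the count at 7 days is no result about the members.

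**Figure D2:**
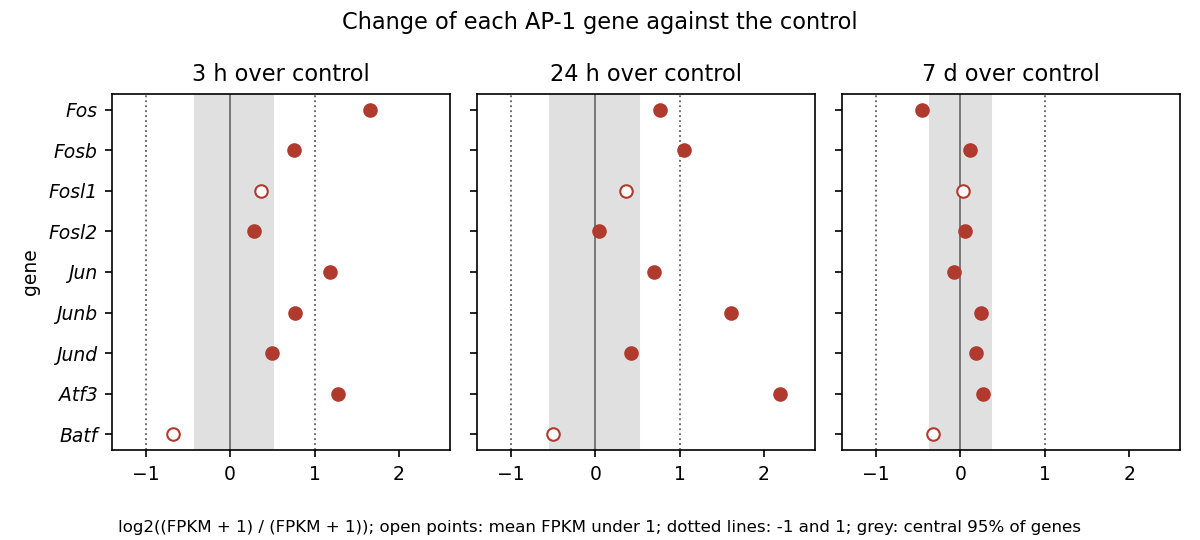
Each point is the log2 change of a gene against the control on the log2(FPKM + 1) scale, at 3 h, 24 h and 7 days. Grey bands hold the central 95% of 14194 genes, dotted lines mark -1 and 1, and open points are the 2 genes with a mean under 1 FPKM; Fos, Jun and Atf3 lie past 1 at 3 h, Fosb, Junb and Atf3 at 24 h, and none at 7 days.

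Fos encodes the founding Fos protein, an unstable transactivator that cannot bind DNA without Jun. It was at 14.2 FPKM without light, 47.0 after 3 h, 24.9 after 24 h and 10.05 after 7 days. The 3 h sample was the highest and the 7-day sample the lowest, under the control. Fos was thus 3.31-fold higher at 3 h, a log2 change of 1.66 that ranked 36 of 14194 genes, 1.76-fold higher at 24 h and at 0.71 of the control at 7 days. Its counting error was 3.15% to 5.62%. It went from below Fosl2 in the control, at 0.84 of the level of that gene, to 2.27 times its level at 3 h, and was at 0.57 of it at 7 days.

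Fosb encodes a Fos protein best known for a long-lived truncated form made by splicing, which gene-level FPKM do not resolve. Its values were 0.484 FPKM in the unexposed sample, 1.51 after 3 h, 2.08 after 24 h and 0.608 after 7 days. The 24 h value was the highest, and the 7-day value was near the control. The ratio to the control was 3.12 at 3 h and 4.29 at 24 h, on about 10.8 fragments in the control, 32.4 at 3 h and 59.5 at 24 h. On the log2(FPKM + 1) scale, which shrinks changes at such levels, these were 0.76 and 1.05. With a pseudocount of 0.1 in place of 1, Fosb also passed the threshold at 3 h, at 1.46.

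Fosl1 encodes Fra-1, a Fos protein that lacks the transactivation domain of Fos and is itself induced by AP-1. It was at 0.0222 FPKM in the control and 0.322, 0.316 and 0.0458 after 3 h, 24 h and 7 days. The control value is below that of 1 fragment for a gene of olfactory receptor length, and the others stand for about 6.90, 9.03 and 1.8 fragments, so no fold is given. The 3 h and 24 h values were alike and stood above the other samples. Fosl2 encodes Fra-2, a related protein with slower kinetics in many cells. It was at 16.8 FPKM without light, 20.7 after 3 h, 17.5 after 24 h and 17.5 after 7 days. Its largest log2 change against the control was 0.29, at 3 h, and its changes at 24 h and 7 days were 0.05 and 0.05, in a gene with a counting error of 3.82% to 5.16%.

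Jun encodes c-Jun, the Jun protein activated by phosphorylation through JNK kinases. It was at 21.9 FPKM in the unexposed sample, 51.0 after 3 h, 36.2 after 24 h and 20.8 after 7 days. Its order over the samples was that of Fos, with 3 h highest, 24 h between and 7 days lowest, but the 7-day value was much nearer to the control. Jun was 2.32-fold higher at 3 h (log2 change 1.18, rank 59 of 14194) and 1.65-fold higher at 24 h (0.70), and at 7 days it was at 0.95 of the control. Relative to Jun, the level of Fos was 0.65 in the control and 0.92, 0.69 and 0.48 after 3 h, 24 h and 7 days.

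Junb encodes a Jun protein that activates weakly and can restrain c-Jun on shared sites. Its values were 36.6 FPKM in the control and 63.3, 113.4 and 43.7 after 3 h, 24 h and 7 days. The 24 h sample stood far above the rest, and 3 h was in between. Junb was 1.73-fold higher at 3 h (log2 change 0.77) and 3.10-fold higher at 24 h (1.61, rank 49 of 14194), with a counting error of 1.76% to 3.50%. At 7 days it was 1.19-fold higher. The level of Junb was 1.67 times that of Jun in the control, 1.24 times at 3 h, 3.14 times at 24 h and 2.10 times at 7 days. At 24 h Junb was the most abundant member and held 42.4% of the family sum, against 26.9% in the control.

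Jund encodes a Jun protein present at a steady level in many resting cells. It was at 42.6 FPKM without light, 60.4 after 3 h, 57.7 after 24 h and 48.6 after 7 days. The control was the lowest sample and 3 h the highest, with log2 changes of 0.49, 0.43 and 0.19. None of these was called, and the range over samples was narrower than for Jun and Junb. Jund was the most abundant member in the control and at 7 days, with Junb next, and these genes were close to each other at 3 h (63.3 FPKM for Junb and 60.4 for Jund).

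Atf3 encodes a stress-induced partner of Jun proteins that represses many promoters as a homodimer. It was at 2.59 FPKM in the unexposed sample, 7.70 after 3 h, 15.4 after 24 h and 3.31 after 7 days. The 24 h value was the highest, 3 h was in between, and 7 days was near the control. Atf3 was 2.98-fold higher at 3 h (log2 change 1.28, rank 56 of 14194) and 5.95-fold higher at 24 h (2.19, rank 38), and it was the only member called at both times. The counting error was 13.2% in the control and 4.77% at 24 h. The level of Atf3 was 0.16 of that of Fos at 3 h and 0.62 of it at 24 h.

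Batf encodes a short partner of Jun that has no transactivation domain and is known from lymphocytes. It was at 0.924 FPKM in the control and 0.20, 0.363 and 0.536 after 3 h, 24 h and 7 days. The control was the highest sample and 3 h the lowest, whereas none of the other 8 members was highest in the control. The 3 h value was 0.22 of the control, on about 4.28 fragments against 20.6, so the ratio is imprecise. The lymphocyte markers Cd3e, Cd3d, Cd8a, Cd4, Cd79a and Ms4a1 were each at 0.476 FPKM or less in every sample. At 3 h Cd4 and Cd8a were slightly above the control (0.372 to 0.427 and 0.152 to 0.181 FPKM), and Ms4a1 was listed at 0, against 0.193 FPKM in the control. The part of lymphocytes in the Batf values was not tested.

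**Figure D3:**
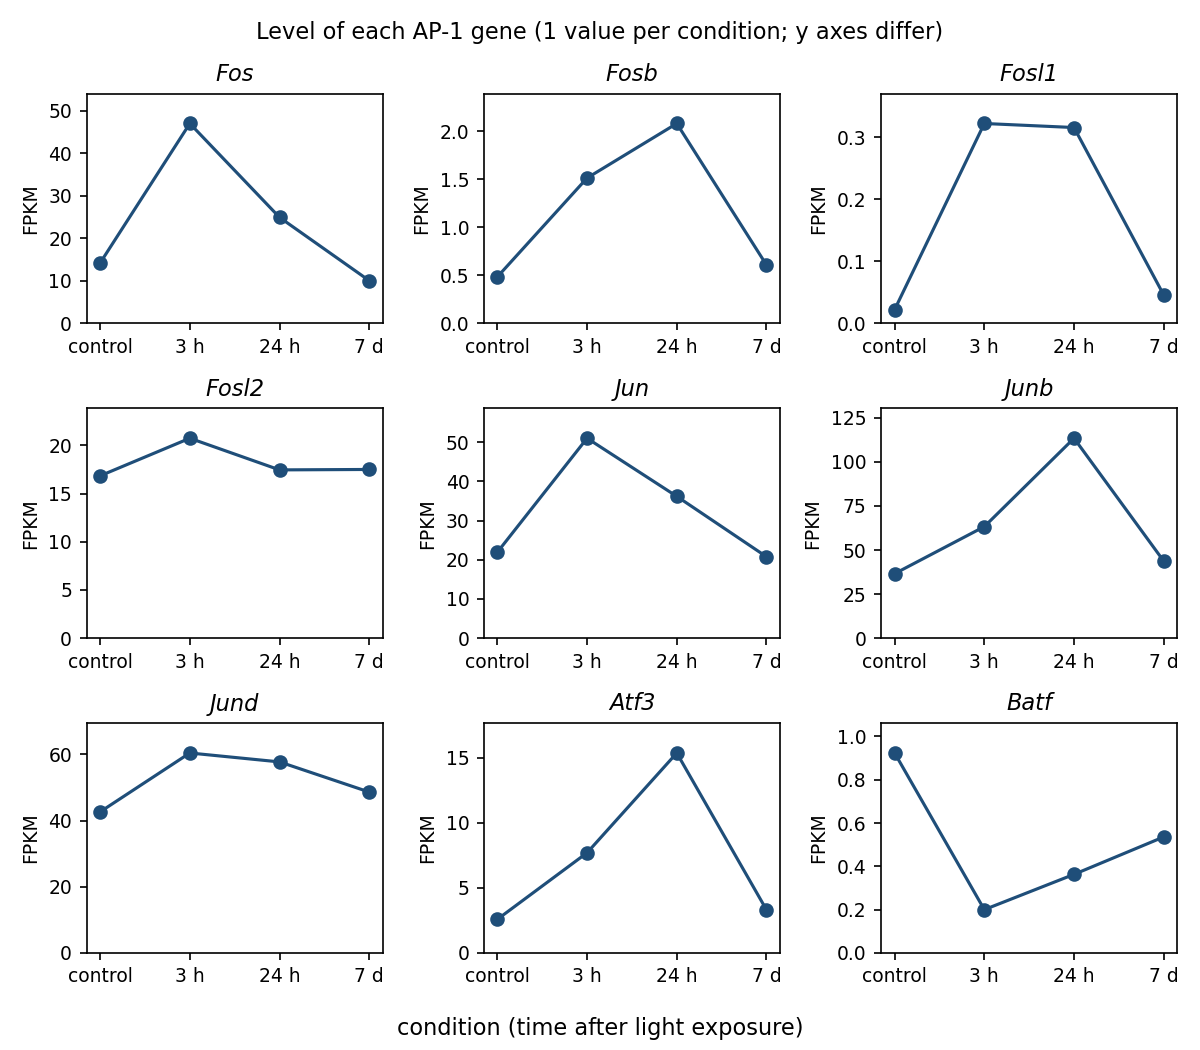
Each panel gives the FPKM of a gene (y axis from 0, different in each panel) in the control and 3 h, 24 h and 7 days after light, spaced evenly and not in proportion to time. Lines only join the single values; Fos and Jun are highest at 3 h, Fosb, Junb and Atf3 at 24 h, Fosl2 and Jund vary least, and Batf is highest in the control.

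The members thus differed in when they were highest. Fos, Jun, Fosl2, Jund and Fosl1 had their highest value at 3 h, while Fosb, Junb and Atf3 had theirs at 24 h. For Fosl1 and Jund the 3 h and 24 h values lay close together. From 3 h to 24 h none of the 7 genes was called higher or lower, against 0.514% called higher and 0.437% lower over all genes. Atf3 (log2 difference 0.91) and Junb (0.83) were nearest to the threshold from below, and Fos (-0.89) was nearest in the other direction. From 24 h to 7 days, Fos (-1.23), Junb (-1.36) and Atf3 (-1.92) were called lower, 3 of 7, against 0.514% of all genes, and none was called higher, against 0.296%. Atf3 ranked 29 and Junb 40 of 14194 from the lowest. Fosb was just outside, at -0.94, but at -1.62 with a pseudocount of 0.1. That made 4 of 7 called lower, against 0.712% of all genes with this pseudocount. Fosb passed the filter only through its 3 h and 24 h values, and without it the count was 3 of 6. After Fosb came Jun at -0.77, while Fosl2 was at 0.00 and Jund at -0.24. These 2 comparisons share the 24 h sample, and in the second one the Y-linked transcripts differ as well.

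Genes with the most similar course were sought among 9743 genes with a mean of at least 5 FPKM. Likeness was the Euclidean distance between log2(FPKM + 1) values, centred for each gene, over the 4 samples. Egr1, another immediate early transcription factor, was the nearest to Fos (distance 0.15) and was at 7.90 FPKM without light, 30.8 after 3 h, 15.9 after 24 h and 5.65 after 7 days. It shared the high value at 3 h and the value under the control at 7 days. The next for Fos were Cfd (0.29) and Fabp4 (0.53), which are made in fat cells, and Fabp4 was also the second nearest to Jun (0.30), after Suv39h2 (0.28) and before BC057022 (0.32). Fat cells can be left on the outside of an eye. The 5 adipocyte markers were Adipoq, Plin1, Fabp4, Cfd and Lep. They summed to 20.4 FPKM in the unexposed sample, 61.1 after 3 h, 32.7 after 24 h and 19.1 after 7 days. Of the 5, 3 passed the filter, and 2 of these were called higher at 3 h, against 0.550% of all genes. Adipoq, which defines the cell type, was at 1.18, 3.02, 1.63 and 0.805 FPKM in the control and after 3 h, 24 h and 7 days. Fat cell markers thus moved with Fos and Jun over the samples, and their part in the result was not tested.

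For the genes highest at 24 h, the nearest courses belonged to other genes. Junb was nearest to Gadd45b, a stress gene (0.35), the oncostatin M receptor gene Osmr (0.38) and the small RNA gene Scarna10 (0.43). Osmr was at 6.33 FPKM in the control and 8.69, 22.7 and 8.21 after 3 h, 24 h and 7 days. Atf3 was nearest to Lcn2 (0.42), an acute-phase lipocalin, to Socs3 (0.48), a feedback inhibitor of cytokine receptors, and to Junb (0.54). Socs3 was at 4.13 FPKM without light, 7.50 after 3 h, 22.8 after 24 h and 5.12 after 7 days. Fosb was nearest to Vip (0.24), Phlpp2 (0.27) and the orphan receptor gene Nr4a1 (0.28). For Fosl2 and Jund the measure says little, since 6269 and 1491 genes lay within a distance of 0.3 of them, against at most 4 for each of the other 5 genes. Their nearest genes were Dph1, Serpinb8 and Net1 for Fosl2 and Thrsp, Fxyd3 and Arg1 for Jund.

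Other cell types differed between the samples too. At 24 h the 8 rod markers had a median log2 change of -0.74 with 1 called lower. The 8 skeletal muscle markers had one of -0.68 with 1 called lower. Over all genes, 0.747% were called higher and 0.359% lower at 24 h, and 0.550% higher and 0.240% lower at 3 h. Of the 6 Mueller glia markers, with a median of 0.17 at 24 h, the reactive glia gene Gfap was called higher. It was at 18.3 FPKM in the control and 15.5, 93.0 and 36.8 after 3 h, 24 h and 7 days, so it was highest in the sample in which Junb and Atf3 were highest. The glutamine synthetase gene Glul of the same list was lower at 24 h than without light (769 to 395 FPKM, -0.96), and the 6 genes summed to 1385, 1441, 1165 and 1569 FPKM. The 6 cone markers had a median of -0.43 at 24 h, with 1, Opn1sw, called lower. Surface epithelium markers were above the control at 3 h in 12 of 12 genes, as were at least 50% of all genes. These markers had a median of 0.30 with 2 called higher. They summed to 4057 FPKM in the unexposed sample, 5071 after 3 h, 4894 after 24 h and 5054 after 7 days. Krt14, called at 3 h, was at 32.3 FPKM in the control and 68.6, 52.7 and 41.7 after light. The other called gene, Krt16, was at 0.442 FPKM in the control and 1.97 at 3 h. Krt16 passed the filter only through its higher values at 3 h and 7 days. The 6 markers of fibroblasts and connective tissue ran the other way, with medians of -0.59 at 3 h, -0.61 at 24 h and -0.25 at 7 days, 2 called lower at 3 h and 2 at 24 h, and sums of 2014 FPKM in the control and 1451, 1419 and 1809 after light. The 5 endothelial markers had medians of -0.45, -0.35 and -0.07, with none called. Microglia and macrophage markers summed to 77.2 FPKM in the control and 78.7, 75.9 and 158.2 after 3 h, 24 h and 7 days. The part of these cell types in the AP-1 values was not tested.

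The wider AP-1 pathway was described with gene lists. Of 21 related bZIP genes, such as those for ATF, CREB, Maf and Nrf2 proteins, 18 passed the filter and none was called at 3 h, 24 h or 7 days. Their medians were 0.12, 0.08 and 0.02. The largest change at 3 h was that of Maff, a small Maf protein (2.91 to 5.69 FPKM, log2 change 0.78), and Atf4, the effector of the integrated stress response, was at 126.6 and 199.3 FPKM. Jdp2, a repressor that pairs with Jun, was at 29.2 FPKM without light, 34.5 after 3 h, 30.2 after 24 h and 33.5 after 7 days. At 24 h the largest change in this list was that of Atf7 (3.24 to 5.13 FPKM, 0.53).

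All 23 genes of the MAP kinase cascade passed the filter. None was called at any of the 3 times. Of all genes 0.550% were called higher at 3 h and 0.747% at 24 h, so a count of 0 in this list or the other pathway lists is near the background and is no result about them. They had medians of 0.05, 0.08 and -0.005. Map3k1, a kinase upstream of JNK, had the largest change, from 14.1 FPKM in the control to 22.8 at 24 h (0.66). The JNK gene Mapk8 was at 10.03 FPKM in the unexposed sample, 11.9 after 3 h, 10.7 after 24 h and 9.76 after 7 days. The 9 genes for serum response factor, its partners and CREB coactivators had medians of -0.01, -0.04 and -0.01, and none was called. Srf itself was at 10.8, 11.7, 11.4 and 10.8 FPKM. The 9 cofactor and turnover genes, among them the ubiquitin ligase gene Fbxw7, which marks c-Jun for breakdown, had medians of 0.09, 0.06 and 0.01 with none called. These are mRNA levels, and the activity of kinases was not measured.

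Of 18 genes for MAP kinase phosphatases, Sprouty and Spred proteins and mRNA decay factors, 17 passed the filter and none was called against the control. Their medians were 0.28 at 3 h, 0.16 at 24 h and 0.00 at 7 days. Of the 17, 14, 13 and 9 lay above 0, as did at least 50% of all genes at each time. Dusp8, a phosphatase that acts on JNK and p38, was at 21.4 FPKM in the control and 38.7, 40.0 and 18.7 after 3 h, 24 h and 7 days. It was high in the samples in which Jun was high. It was the 1 gene of the list called lower from 24 h to 7 days (-1.06), against 0.514% of all genes. Dusp1, an immediate early phosphatase gene, was at 22.05 FPKM without light, 24.2 after 3 h, 17.2 after 24 h and 16.7 after 7 days. At 24 h it was lower than in the control, by a log2 change of -0.34, while Fos, Jun and Junb were higher.

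Genes known as AP-1 targets in other settings showed no common direction. Of 24 genes, 19 passed the filter, and their medians were 0.02 at 3 h, 0.02 at 24 h and -0.03 at 7 days. None was called at 3 h. At 24 h 2 were called higher, against 0.747% of all genes. They were Timp1, a metalloproteinase inhibitor (2.96 to 11.5 FPKM, log2 change 1.66), and Ccl2, a monocyte chemokine (0.439 to 2.35 FPKM, 1.22). Ccl2 passed the filter only through its value at 24 h, the sample in which it was called. The collagenase gene Mmp13 was at 0.113 to 0.211 FPKM in all samples, and Mmp14 had the lowest change at 3 h (34.6 to 17.7 FPKM, -0.93). Gap43, a growth cone protein gene, was at 10.2 FPKM in the unexposed sample, 8.91 after 3 h, 18.1 after 24 h and 9.93 after 7 days, highest in the sample with the highest Atf3.

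Beside the other immediate early and C/EBP genes, the AP-1 family had the higher median at 3 h and 24 h, but not the largest single changes. A list median also depends on which genes were put in the list. The immediate early list, with EGR, NR4A, IER and KLF genes, had medians of 0.42 at 3 h, 0.19 at 24 h and -0.10 at 7 days over the 13 of 17 genes that passed the filter. Egr1 was the 1 gene of it called, at 3 h, with a log2 change of 1.84 against 1.66 for Fos. Arc and Npas4, which respond to neuronal activity, had low levels (0.717 to 2.29 FPKM for Arc and 0.463 to 1.38 for Npas4 from the control to 3 h). The C/EBP list had medians of 0.41, 0.39 and 0.26 over 6 of 7 genes. Cebpd was called higher at 3 h and 24 h and Cebpb at 3 h (9.36 to 21.3 FPKM). The log2 changes of Cebpd, 2.29 at 3 h and 2.52 at 24 h, were above those of every AP-1 gene. The largest AP-1 changes were 1.66 for Fos at 3 h and 2.19 for Atf3 at 24 h. The share of all genes called higher was 0.550% at 3 h and 0.747% at 24 h. The differences between these lists and the AP-1 genes were not tested.

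**Figure D4:**
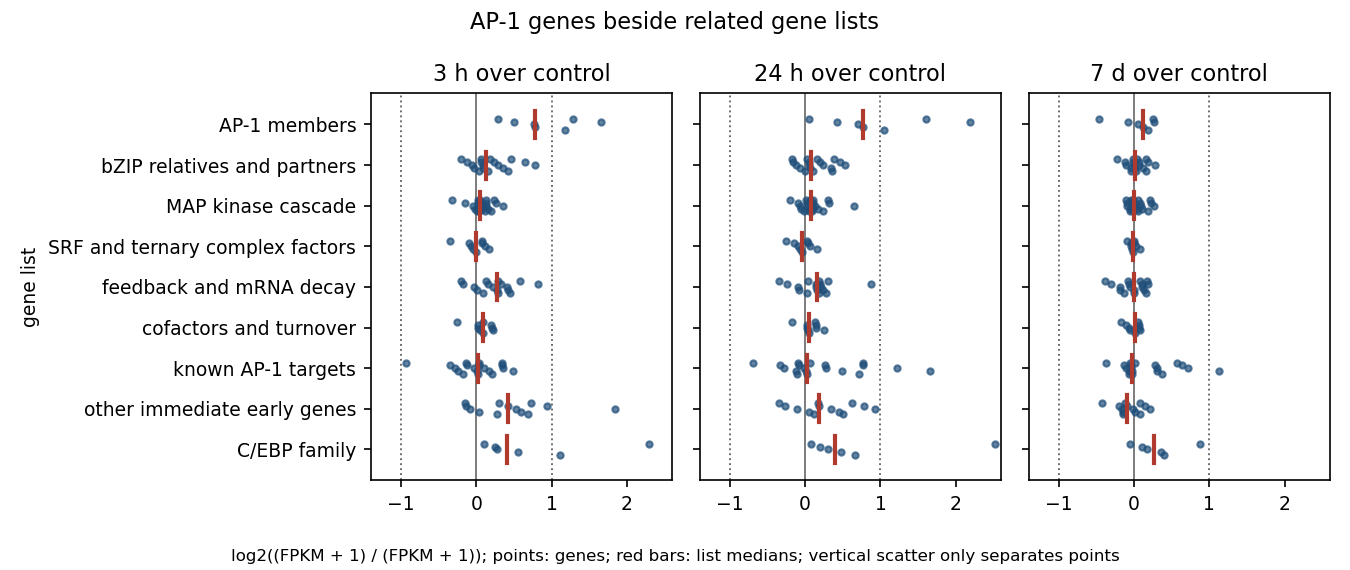
Points are the genes with a mean of at least 1 FPKM in each list, placed by their log2 change against the control on the log2(FPKM + 1) scale, and red bars are list medians; vertical scatter only separates points. The AP-1 median is 0.77 at 3 h and 24 h, while the kinase, serum response factor and cofactor lists lie within 0.1 of 0.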

How the data were processed

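TruSeq RNA libraries were prepared from column-purified RNA, per the labels' protocols, and the labels name both whole eyes and retinas as the tissue. The FPKM values were deposited by the authors as 1 table. They were made on mm9 with TopHat2 (version 2) and Cuffdiff 2.2.1, per the submitters' processing notes. The annotation, the scaling, the use of strand, and whether each value is a pool or a mean of 3 mice were not given in the sources used here. Without strand, fragments of antisense transcripts cannot be told apart.

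Changes were computed with pandas 2.3.3 as log2 ratios with a pseudocount of 1 across all genes with a mean of at least 1 FPKM, and called at 1 log2 unit. With 1 value per condition no p-value is given. The calculation was tested on simulated data. Depth is unknown and was approximated. Members, lists and rules were chosen with earlier results of these data known. Named were all 9 members, the 3 nearest genes of each (unnamed models and most small RNA genes passed over), and list genes that were called, highest, lowest or at 0, with others chosen after their values were seen: Jdp2, Atf4, Mapk8, Srf, Fbxw7, Dusp1, Mmp13, Gap43, Arc and Npas4. Alternatives were other pseudocounts, filters, scalings and thresholds. The values of some list genes are not reported here.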

Additional observations from a re-analysis of the deposited data

Results flagged for a closer look

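Fos lay on opposite sides of the control at different times after light. Its log2 change was 1.66 at 3 h, 0.77 at 24 h and -0.46 at 7 days. With 1 value per condition the difference was not tested. By its Y-linked transcripts the 7-day sample is the one that held male tissue, beside female tissue by its Xist level of 37.1 FPKM. Egr1, the gene with the most similar course, was at 7.90 FPKM in the control and 5.65 at 7 days.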

How the results depend on the processing

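No paired analysis was possible because each condition has 1 value, and for the same reason no replicate could be left out. Under both rescalings, which shifted the samples by at most 0.07 log2 units, the counts of called members in each comparison stayed as reported, 3 higher at 3 h, 3 higher at 24 h and 3 lower from 24 h to 7 days. The median of the members at 3 h was 1.21 with a pseudocount of 0.1, 1.22 with 0.01 and 0.98 with a mean of at least 5 FPKM. From 24 h to 7 days it was -1.302, -1.309 and -1.001 under these. With a 1.5-fold threshold, 5 members were higher at 3 h, 5 were higher at 24 h, 2 were higher and 1 lower from 3 h to 24 h, and 5 were lower from 24 h to 7 days, while 1.75% and 1.97% of all genes were higher at 3 h and 24 h, 1.43% higher and 2.12% lower from 3 h to 24 h, and 1.45% lower from 24 h to 7 days. Among protein-coding genes alone, a choice made after seeing the data, 0.273% were higher at 3 h and 0.442% at 24 h. Among genes above 0 in all 4 samples, chosen likewise, these were 0.404% and 0.538%. No value changed its direction past the threshold. Depth limits Fosl1, Batf and the control value of Fosb most.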
